A study of Mus musculus with 16 samples.

Results

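The 39 genes described here are antiviral genes of mouse that type I interferon induces, chosen by a list of symbols, and all 39 were found among the 56748 genes of the deposited count table. The list was chosen with earlier results of these data known. Each of the 39 had at least 1 count in any sample of every comparison, so that all 39 were tested throughout. The genes were counted in TM4 cells, an established mouse line with features of Sertoli cells, the somatic cells that nurse germ cells in the testis. The cells were transiently transfected with plasmid carrying the *gdf6Y* gene of the turquoise killifish (gdf6Y, 5 samples), its mutant variant del9 (del9, 5 samples) or no insert (empty vector, EV, 6 samples). The study states that replicate 6 of gdf6Y and replicate 6 of del9 were excluded for lower sequencing quality, and neither is among the 16 samples here. A figure legend of the study nevertheless gives n = 6 for gdf6Y. Every sample, EV included, received 2.5 µg of plasmid per well together with Lipofectamine 24 h after seeding, and RNA was taken 24 h after transfection. No sample without plasmid and none treated with interferon was among the 16, and the transcript of the insert itself was not analysed here. Both comparisons against EV use the same 6 EV samples.

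Type I interferons bind a receptor on the cell surface, and the kinases Jak1 and Tyk2 then phosphorylate Stat proteins. Stat2 and Irf9 are subunits of the complex ISGF3, which binds an element in the promoters of its targets, the interferon-stimulated response element (ISRE). The products of the targets act on foreign RNA, on nucleotide pools, on protein modification and on the release of virus particles. Cells of many tissues keep a basal level of these genes, and sensors of cytosolic DNA and RNA can raise it.

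A few promoters are printed, from genes that stand for the different outcomes below. The 150 bases before the start of the canonical transcript in GENCODE M39 (GRCm39) are given in the direction of transcription, and capitals mark the ISRE core GAAANNGAAA or its reverse complement. The first pair is from *Ifit3* and *Rsad2*, which fell with both inserts, followed by *Oas3* and *Ddx60*, which also fell, by *Isg15*, which was not called, and by *Ifi27*, which was higher.
Ifit3 (chr19:34560749-34560898, plus strand): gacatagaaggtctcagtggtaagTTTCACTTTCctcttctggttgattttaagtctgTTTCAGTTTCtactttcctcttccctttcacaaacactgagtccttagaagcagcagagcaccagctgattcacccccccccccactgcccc
Rsad2 (chr12:26506452-26506601, minus strand): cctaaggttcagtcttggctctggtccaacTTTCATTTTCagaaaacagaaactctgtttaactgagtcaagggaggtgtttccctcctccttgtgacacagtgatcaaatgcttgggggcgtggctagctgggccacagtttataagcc
Oas3 (chr5:120915730-120915879, minus strand): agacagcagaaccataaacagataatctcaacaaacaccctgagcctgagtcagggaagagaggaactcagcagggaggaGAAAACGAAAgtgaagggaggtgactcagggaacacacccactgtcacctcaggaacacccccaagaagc
Ddx60 (chr8:62380973-62381122, plus strand): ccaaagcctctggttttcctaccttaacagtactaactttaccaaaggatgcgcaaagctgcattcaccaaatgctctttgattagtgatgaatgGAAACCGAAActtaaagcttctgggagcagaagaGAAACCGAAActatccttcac
Isg15 (chr4:156285304-156285453, minus strand): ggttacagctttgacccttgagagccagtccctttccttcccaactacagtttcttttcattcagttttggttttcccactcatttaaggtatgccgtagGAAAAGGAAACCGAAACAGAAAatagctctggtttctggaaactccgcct
Ifi27 (chr12:103400267-103400416, plus strand): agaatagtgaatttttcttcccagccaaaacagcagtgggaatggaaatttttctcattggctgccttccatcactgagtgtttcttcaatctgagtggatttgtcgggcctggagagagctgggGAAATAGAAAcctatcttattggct
In *Isg15* the capitals hold 3 overlapping matches. Over the window from 250 bases before to 50 bases after the start, searched on both strands, the ISRE core was present in 16 of the 39 members (41.0%) and in 3.84% of the promoters of 21770 genes. Of the 27 members that were lower with either insert, 9 held the ISRE core, and of the other 12, 7 did. A match is a description of these letters and no measure of binding.

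Between 21486850 and 26444903 reads per sample were counted on genes, and mitochondrial genes took 1.17 to 2.03% of them. Normalized counts are counts scaled to the mean effective library size of 24649079 reads. The gdf6Y replicate 1 stood apart from the other gdf6Y samples, with a chi-square per degree of freedom of 9.19 to 14 against them, whereas the pairs among the other gdf6Y samples gave 3.03 to 5.2. Nothing in the labels says that the samples of a group came from separate cultures, so the p-values measure only the spread between these samples, which may be technical. The 9 Sertoli cell markers examined summed to between 1693 and 1779 normalized counts in EV, 1510.0 and 1629 in gdf6Y, and 1583 and 1739 in del9, and 6 of the 9 had a mean of at least 10 in EV. Most of the EV sum came from *Gata4* (mean 831) and *Kitl* (707), while *Amh* had 5.49, *Fshr* 0.171 and *Cldn11* 0. The 6 macrophage and leukocyte markers summed to between 50.8 and 69.9 in EV, 36.5 and 58.9 in gdf6Y, and 42.0 and 67.9 in del9, with *Itgam* at 0 in every sample. The 4 markers of peritubular myoid cells summed to between 4478 and 4714 in EV, 4710 and 5057 in gdf6Y, and 4571 and 4840 in del9. Nearly all of this was *Acta2*, with an EV mean of 4530, against 44.1 for *Des*, 32.0 for *Cnn1* and 0.678 for *Myh11*. The sums of different lists are therefore not comparable. Endothelial, Leydig and germ cell markers stayed at or below a sum of 35.8 in each sample, with *Cyp17a1* and *Hsd3b1* of the Leydig cell list at 0. The part of these markers in the results was not tested.

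The members spanned a wide range of levels in EV. Normalized counts had EV means from 48.7 for *Mx1* to 13456 for *Bst2*, with a median of 1601 over the 39 genes. Per kb of exonic length, *Bst2*, which tethers budding virus particles to the cell, was the most abundant with 11084, followed by *Isg15* with 4516 and *Oasl1* with 2455. *Uba7* with 27.1, *Epsti1* with 21.6 and *Mx1* with 14.5 were the least abundant, so that the highest and the lowest member differed 767-fold per kb. The genes lay on 15 chromosomes. The 4 Ifit genes lay on chromosome 19, the 5 Oas genes on chromosome 5, *Rsad2* and *Cmpk2* on chromosome 12, and *Mx1*, *Mx2*, *Parp9*, *Parp14*, *Dtx3l* and *Rtp4* on chromosome 16.

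With gdf6Y, 24 of the 39 members were lower than with EV and 1 was higher, by the quasi-likelihood test of edgeR, where a gene was called once its p, adjusted over all genes by Benjamini and Hochberg, was under 0.05. Of all 26316 genes tested, 3.38% were lower and 1.70% were higher. Among the 12603 genes with a mean of at least 10 normalized counts, where all members belong, 7.01% were lower and 3.50% higher. Since the members were chosen with earlier results known, shares of members beside shares of all genes are a description here and below. The log2 fold changes of the 39 members ran from -0.43 for *Ifit3* to 0.14 for *Ifi27* with a median of -0.16, and 35 were below 0, whereas the median of all genes was -0.0021. In 15 members (38.5%) every gdf6Y sample was below every EV sample, which held for 2.73% of the genes with a mean of at least 10.

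With del9, 26 of the 39 members were lower than with EV and 1 was higher by the same test. Of the 26226 genes tested, 4.43% were lower and 4.82% higher, and of the 12573 with a mean of at least 10, 8.23% were lower and 9.97% higher. The log2 fold changes of the members ran from -0.45 for *Mx1* to 0.26 for *Epsti1*, the latter not called, with a median of -0.13, and 36 were below 0. The median of all genes was -0.0054. In 10 members (25.6%) every del9 sample was below every EV sample, against 2.99% of the genes with a mean of at least 10. Without del9 replicate 5, 17 members were lower, the lowest count of any sample left out.

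Lower with either insert were 27 of the 39 members, and *Ifi27* was higher with both. Of the genes with a mean of at least 10, 7.01% were lower with gdf6Y and 8.23% with del9. The share lower with either insert was not computed. *Oas1a*, *Isg15*, *Usp18*, *Parp12*, *Irf9*, *Trim21*, *Ifi35*, *Bst2*, *Lgals3bp*, *Eif2ak2* and *Epsti1* were called with neither, although *Usp18* and *Irf9* were called lower with del9 under 7 and 6 of 9 alternative fits. With gene length offsets in the fit, *Isg15* and *Usp18* were called lower with both inserts. With these offsets *Bst2* was called lower with del9, and *Lgals3bp*, *Parp12* and *Trim21* with gdf6Y. Of the genes called with neither, only *Oas1a*, *Ifi35* and *Epsti1* were called under no alternative fit and with no sample left out. In bulk samples, fewer cells of a kind and less RNA per cell cannot be told apart. The size of an adjusted p depended strongly on the fit: for *Ifit3* it ran from 2.17e-33 to 0.000589 over the alternatives in gdf6Y against EV, at log2 fold changes between -0.46 and -0.39. The standard errors of the fit pool the spread of many genes. The standard error from the spread of a gene's own samples was larger than the fitted one for 21 members in gdf6Y against EV (ratio 0.417 to 2.37, median 1.07), and for 23 in del9 against EV (ratio 0.44 to 2.49, median 1.11).

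An exact permutation test over the samples (two-sided, unadjusted), which uses only the gene's own values, was therefore set beside the fit, chosen after the data were seen. By this test 31 of the 39 members were lower with gdf6Y at p below 0.05 and 1 was higher, against 12.1% lower and 10.7% higher among the genes with a mean of at least 10. With del9, 28 were lower and 0 higher by the permutation test, against 12.7% and 16.3% of those genes. The test moves samples freely across the replicate numbers and so takes no account of any pairing by number. The smallest p that the 462 arrangements of 5 and 6 samples allow is 0.00216. *Oasl1* was the only member lower in edgeR with either insert that did not reach an exact p of 0.05, with 0.0887 for gdf6Y and 0.26 for del9. Lower by the permutation test but not called by edgeR were *Mx1*, *Isg15*, *Usp18*, *Parp9*, *Parp12*, *Irf9*, *Trim21* and *Eif2ak2* with gdf6Y. With del9 these were *Usp18*, *Irf9* and *Eif2ak2*. *Ifi27* had an exact p of 0.0303 with gdf6Y and 0.123 with del9.

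**Figure D1:**
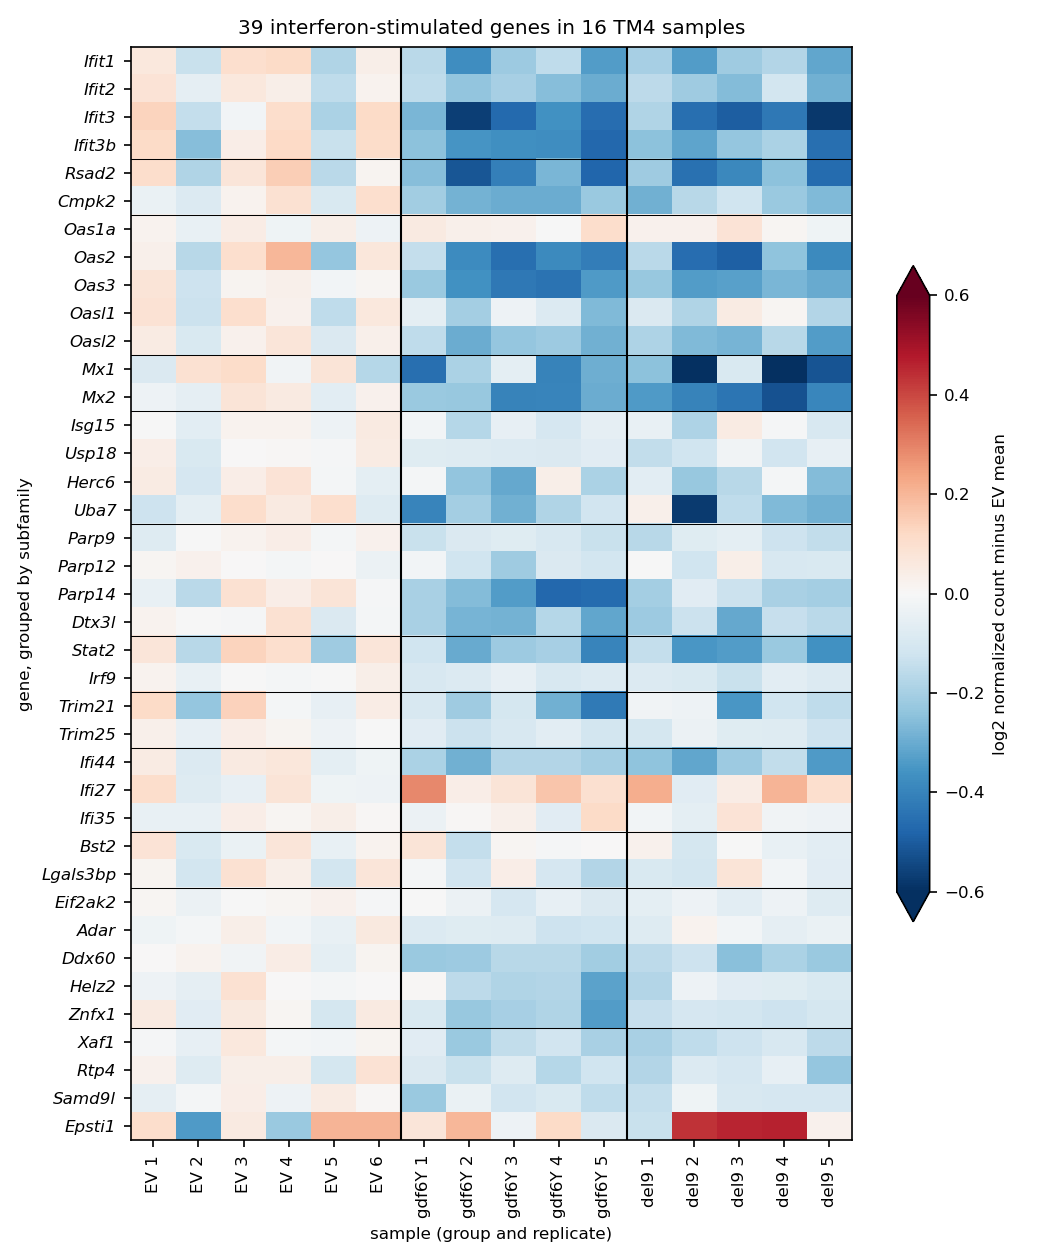
Log2 normalized count of the 39 members (rows, grouped by subfamily and separated by lines) in the 16 samples (columns), minus the mean of the 6 EV samples, with the colour scale clipped at its ends. Most rows are blue in all 10 samples with an insert, EV replicates 2 and 5 are paler blue in most rows, and Ifi27 and Epsti1 hold the deepest red cells.

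The samples with an insert were below the EV samples in the mean over the members. Relative to the EV mean, the mean log2 value over the 39 members was between -0.21 and -0.11 in the 5 gdf6Y samples and between -0.20 and -0.13 in the 5 del9 samples. In EV it was between 0.025 and 0.046 in replicates 1, 3, 4 and 6, but -0.086 in replicate 2 and -0.048 in replicate 5. EV replicate 2 was the lowest EV sample for 20 members and EV replicate 5 for 13. The plot of all members by sample shows the same 2 columns. Samples numbered 2 and 5 were also the lowest with the inserts, at -0.19 and -0.21 for gdf6Y and -0.18 and -0.20 for del9. Between gdf6Y and EV samples of the same number, 30 of the 39 members were lower in all 5 differences and 1 was higher in all 5, against 13.3% and 11.8% of genes with a mean of at least 10. Among these 30 were 15 whose groups overlapped. A sign-flip test over 5 such differences cannot give an exact p below 0.0625. Without EV replicate 2, 27 members were lower with gdf6Y and 27 with del9, and without EV replicate 5 the counts were 24 and 23.

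The Ifit proteins bind foreign RNA and hinder its translation, Ifit1 by its 5' end and the others as partners. All 4 members fell with both inserts, with log2 fold changes between -0.43 and -0.23 for gdf6Y and between -0.42 and -0.20 for del9. Normalized counts of *Ifit3* (chr19:34560899-34566443, plus strand) were 1033 at the lowest, 1217 at the median and 1292 at the highest of the 6 EV samples. They were 976, 796, 854, 916 and 858 in the 5 gdf6Y samples and 1040.4, 860.2, 838, 877 and 788 in the 5 del9 samples. Every gdf6Y sample was below every EV sample, whereas del9 replicate 1 lay just inside the EV range. The log2 fold change of *Ifit3* was -0.43 (SE 0.0389, adjusted p = 1.07e-22) with gdf6Y and -0.42 (SE 0.0374, adjusted p = 6.56e-26) with del9, with exact p of 0.00216 and 0.00433. *Ifit3b*, its close copy, shared 26.9% of its short exonic windows with *Ifit3*, and a read within such a stretch matches both genes. Its log2 fold changes were -0.37 and -0.29. *Ifit1*, which had the highest count of the family (3076 ± 264 SD, n = 6, in EV), changed by -0.25 and -0.25, and *Ifit2* by -0.23 and -0.20. The groups of *Ifit1* overlapped in both comparisons.

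*Rsad2* and *Cmpk2* are neighbours that act on nucleotides: viperin, the product of *Rsad2*, makes a nucleotide that stops viral RNA chains, and *Cmpk2* encodes a mitochondrial nucleotide kinase. Both fell with both inserts. *Rsad2* (chr12:26492745-26506451, minus strand) had normalized counts of 2012 at the lowest, 2354 at the median and 2527 at the highest in EV, 1908, 1600.3, 1716, 1888 and 1639 in gdf6Y, and 1967, 1672, 1748, 1921 and 1656 in del9. All 10 samples with an insert were below all 6 EV samples. The log2 fold change was -0.39 (SE 0.0333, adjusted p = 2.1e-25) with gdf6Y and -0.35 (SE 0.0313, adjusted p = 1.48e-25) with del9, and the standard errors from its own spread were 0.077 and 0.0765. *Cmpk2* changed by -0.26 and -0.21, also without overlap between either insert and EV.

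The Oas proteins are oligoadenylate synthetases, which bind double-stranded RNA and make short chains of adenylate. Of the 5 members, *Oas2*, *Oas3*, *Oasl1* and *Oasl2* fell with both inserts and *Oas1a* was not called. *Oas3* (chr5:120891163-120915729, minus strand) had normalized counts of 1917 at the lowest, 2112 at the median and 2205 at the highest of the EV samples. In gdf6Y the counts were 1791, 1622, 1554, 1539 and 1651, and in del9 they were 1788, 1658, 1667, 1726 and 1697. Neither insert overlapped with EV. Its log2 fold change was -0.36 (SE 0.033, adjusted p = 2.93e-22) with gdf6Y and -0.29 (SE 0.0318, adjusted p = 5.58e-17) with del9. *Oas2* fell by a similar amount (-0.36 and -0.35) and overlapped with EV, whose replicates 2 and 5 were the lowest, while the 5 differences between gdf6Y and EV samples of the same number were all negative. *Oasl2*, a synthetase with ubiquitin-like domains, changed by -0.24 and -0.24 without overlap. *Oasl1*, which lacks synthetase activity and represses translation of Irf7, was the third most abundant member per kb in EV and changed by -0.13 and -0.075. Both of its calls were lost with DESeq2 (adjusted p = 0.0811 and 0.418) and with the stricter filters on low counts, and the call with del9 also in the fit of all 3 groups and when any of 6 samples was left out. *Oas1a* was 1040.4 ± 27.6 (SD, n = 6) in EV, 1072 ± 29.8 (SD, n = 5) in gdf6Y and 1058 ± 27.7 (SD, n = 5) in del9. It shared 9.67% of its windows with other genes, *Oas1g* among them.

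The Mx proteins are dynamin-like GTPases that trap viral ribonucleoproteins, *Mx1* in the nucleus and *Mx2* in the cytoplasm. *Mx2* fell with both inserts and *Mx1* was called with del9. *Mx2* (chr16:97336508-97362100, plus strand) had 363 at the lowest, 378 at the median and 399 at the highest normalized counts in EV. The gdf6Y samples had 325, 324, 287, 288 and 308, and the del9 samples had 299.7, 287, 279.6, 264 and 289. All samples with an insert lay below the EV range. Relative to EV it changed by -0.31 (SE 0.057, adjusted p = 8.8e-06) with gdf6Y and -0.41 (SE 0.0576, adjusted p = 1.52e-10) with del9. *Mx1*, with 48.7 ± 3.71 (SD, n = 6) normalized counts in EV the least counted member, changed by -0.27 (SE 0.147, adjusted p = 0.391) with gdf6Y and by -0.45 (SE 0.15, adjusted p = 0.0342) with del9, and its groups overlapped. The call with del9 was lost when any of 6 samples was left out.

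*Isg15* encodes a ubiquitin-like protein, *Uba7* the enzyme that activates it, *Herc6* its main ligase in mouse, and *Usp18* the protease that removes it and that also blocks the interferon receptor. *Uba7* fell with both inserts, *Herc6* was called with del9, and *Isg15* and *Usp18* were called with neither. *Uba7* (chr9:107852704-107861262, plus strand) was 166 at the lowest, 181 at the median and 195 at the highest in EV, 138, 157, 149, 160.2 and 167 in gdf6Y, and 185, 122, 163, 151 and 148 in del9. The del9 samples spread over a wider range than the others, and del9 replicate 1 was above the EV median. edgeR gave a log2 fold change of -0.24 (SE 0.078, adjusted p = 0.0477) with gdf6Y and -0.24 (SE 0.0775, adjusted p = 0.0276) with del9, and DESeq2 called neither, and the call was lost when any of 7 samples was left out with gdf6Y and any of 6 with del9. *Herc6* (chr6:57557932-57642597, plus strand) was 562 at the lowest, 608 at the median and 637 at the highest in EV, 598, 510.5, 487, 617 and 529 in gdf6Y, and 577, 515, 537, 597 and 503 in del9. Replicates 1 and 4 of both inserts lay within the EV range and the other replicates below it. Replicates 1 and 4 were also the highest of EV, and the 5 same-numbered differences between gdf6Y and EV were all negative. The log2 fold change was -0.14 (SE 0.0465, adjusted p = 0.062) with gdf6Y and -0.14 (SE 0.0457, adjusted p = 0.0268) with del9. The call with del9 was lost with gene length offsets and when any of 6 samples was left out. When the replicate numbers entered the fit as a block, the adjusted p for gdf6Y was 0.0139. *Isg15*, the second most abundant member per kb, was 3532 ± 99.9 (SD, n = 6) in EV and changed by -0.076 (SE 0.0293, adjusted p = 0.129) and -0.052 (SE 0.0284, adjusted p = 0.316). With gene length offsets, with or without the block, *Isg15* was called lower with both inserts. *Usp18* changed by -0.076 and -0.088, with adjusted p of 0.207 and 0.0637. It was called lower with del9 under 7 of 9 alternatives, DESeq2 (adjusted p = 0.0373) and filterByExpr (0.0383) among them. With gdf6Y it was called lower under 2 of 9, both with gene length offsets.

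The Parp proteins attach ADP-ribose to other proteins, and *Parp9* works in a complex with the ubiquitin ligase Dtx3l, whose gene starts beside it on the opposite strand. *Parp14* and *Dtx3l* fell with both inserts, *Parp9* was called with del9, and *Parp12* was called with neither. *Parp14* (chr16:35653231-35692003, minus strand) had normalized counts of 686 at the lowest, 776 at the median and 818 at the highest of the EV samples. It had normalized counts of 670.2, 642, 607, 553 and 558 in gdf6Y and of 667, 732, 702, 670.5 and 667 in del9. All gdf6Y samples were below the EV range, and 2 of the 5 del9 samples lay inside it. On the log2 scale it changed by -0.34 (SE 0.0438, adjusted p = 7.43e-12) with gdf6Y and -0.16 (SE 0.0419, adjusted p = 0.00355) with del9. *Dtx3l* (chr16:35746881-35759521, minus strand) was 637 at the lowest, 674 at the median and 722 at the highest in EV, 591, 559, 556, 602 and 545 in gdf6Y, and 583, 619.8, 548, 616 and 606 in del9. Neither insert overlapped with EV. Its log2 fold change was -0.25 (SE 0.0448, adjusted p = 5.86e-06) and -0.19 (SE 0.044, adjusted p = 0.00079). *Parp9* changed by -0.10 (SE 0.0368, adjusted p = 0.0846) with gdf6Y and -0.11 (SE 0.0364, adjusted p = 0.0288) with del9, the same direction and nearly the same size with and without a call. With gdf6Y it was called lower under 5 of 9 alternatives, and its call with del9 was lost when any of 6 samples was left out. *Parp12* changed by -0.11 (adjusted p = 0.0963) and -0.052 (adjusted p = 0.509). With the replicate block, its adjusted p for gdf6Y was 0.0371.

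*Stat2* and *Irf9* encode subunits of ISGF3, the factor that drives the other members. *Stat2* fell with both inserts. Normalized counts of *Stat2* (chr10:128106352-128128735, plus strand) were 2107 at the lowest, 2568 at the median and 2675 at the highest in EV, 2249, 1979.6, 2101, 2129 and 1854 in gdf6Y, and 2209, 1917, 1937, 2089 and 1899.5 in del9. The EV replicates 2 and 5 lay near the level with inserts, and the groups overlapped in both comparisons. In each of the 5 same-numbered pairs gdf6Y was below EV, by 0.14 to 0.35 on the log2 scale. The fitted change was -0.25 (SE 0.0326, adjusted p = 2.74e-11) and -0.28 (SE 0.0307, adjusted p = 2.45e-17), with exact p of 0.0238 and 0.0173. *Irf9* was 1601 ± 30.2 (SD, n = 6) in EV, 1515 ± 20.3 (SD, n = 5) in gdf6Y and 1504 ± 27.6 (SD, n = 5) in del9. All samples with an insert were below all EV samples, with exact p of 0.00433 and 0.00433, but the log2 fold changes were small, -0.078 (SE 0.0337, adjusted p = 0.21) and -0.087 (SE 0.0332, adjusted p = 0.0808). The main edgeR fit called neither. With del9 *Irf9* was called lower with DESeq2 (adjusted p = 0.0233), filterByExpr (0.0183), a minimum of 10 counts, total counts and gene length offsets with or without the block.

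*Trim25* is a ubiquitin ligase that acts on the RNA sensor Rigi, and *Trim21* is a ligase that binds antibodies on incoming virus. *Trim25* fell with both inserts and *Trim21* was called with neither. *Trim25* (chr11:88890202-88911122, plus strand) had 4289 at the lowest, 4465 at the median and 4567 at the highest normalized counts in EV, 4236, 4064, 4159.5, 4250.1 and 4114 in gdf6Y, and 4137, 4339, 4228, 4207 and 4081 in del9. All gdf6Y samples were below the EV range, and 1 del9 sample lay inside it. Its log2 fold change was -0.093 (SE 0.0283, adjusted p = 0.0269) with gdf6Y and -0.080 (SE 0.0275, adjusted p = 0.0412) with del9. The call was lost when any of 7 of the 11 samples was left out with gdf6Y and any of 8 of the 11 with del9. *Trim21* changed by -0.22 (SE 0.0763, adjusted p = 0.0655) and -0.13 (SE 0.0744, adjusted p = 0.34), and with the replicate block its adjusted p for gdf6Y was 0.0301.

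Of the Ifi genes, *Ifi44* fell with both inserts, *Ifi35* was called with neither, and *Ifi27* was the single member that was higher. *Ifi44* (chr3:151436559-151455625, minus strand) was 4596 at the lowest, 4904 at the median and 5098 at the highest in EV, 4266, 3980.0, 4311, 4307 and 4223 in gdf6Y, and 4118, 3916, 4183, 4391 and 3842 in del9. No sample with an insert reached the EV range. The log2 fold change was -0.21 (SE 0.0284, adjusted p = 2.48e-10) and -0.25 (SE 0.0274, adjusted p = 8.37e-17). *Ifi27* (chr12:103392254-103407799, plus strand), a small membrane protein and described in the same detail because it stood out once the values were seen, was 1969 at the lowest, 2037 at the median and 2235 at the highest in EV, 2539, 2134, 2191, 2331 and 2224 in gdf6Y, and 2417, 1981, 2141, 2393 and 2225 in del9. The groups overlapped, with replicates 1 and 4 the highest of both inserts and of EV. *Ifi27* was higher with gdf6Y than with EV in all 5 same-numbered pairs, by 0.089 to 0.18 on the log2 scale. Its log2 fold change was 0.14 (SE 0.0319, adjusted p = 0.00109) and 0.10 (SE 0.0308, adjusted p = 0.012). The call with del9 was lost with DESeq2 and with both stricter filters on low counts. *Ifi35*, 777 ± 19.8 (SD, n = 6) in EV, changed by 0.012 and by -0.0067, with the 95% interval of the first from -0.069 to 0.093.

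Neither of the members at the membrane or outside the cell was called in the main fit. *Lgals3bp* (chr11:118280716-118292918, minus strand), a secreted glycoprotein that binds galectins, was 8385 at the lowest, 9203 at the median and 9637 at the highest in EV, 8962, 8363, 9294, 8436 and 8011 in gdf6Y, and 8474, 8378, 9525, 8939 and 8619 in del9. The groups overlapped over most of their range. Its log2 fold change was -0.071 (SE 0.0267, adjusted p = 0.113) and -0.041 (SE 0.0255, adjusted p = 0.404). With gdf6Y it was called lower under 2 of 9 alternatives, both with gene length offsets, and when any of 4 samples was left out. *Bst2* was 13456 ± 655 (SD, n = 6) in EV, 13347 ± 730 (SD, n = 5) in gdf6Y and 13100.0 ± 465 (SD, n = 5) in del9. The 95% interval of its log2 fold change was -0.060 to 0.040 with gdf6Y and -0.085 to 0.012 with del9. These intervals rest on fitted standard errors of 0.0257 and 0.0247, below the 0.0461 and 0.0367 from the spread of its own samples. With gene length offsets *Bst2* was called lower with del9, and with the replicate block added it was called lower with both inserts.

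The 5 members that bind or unwind RNA are *Eif2ak2*, the kinase PKR, *Adar*, which edits adenosine to inosine in double-stranded RNA, and the helicases *Ddx60*, *Helz2* and *Znfx1*. The helicases fell with both inserts, *Adar* was called with gdf6Y, and *Eif2ak2* was called with neither. *Znfx1* (chr2:166877710-166904968, minus strand) was 2166 at the lowest, 2379 at the median and 2422 at the highest in EV, 2181, 1986, 2026, 2056 and 1845 in gdf6Y, and 2111, 2169.8, 2156, 2133 and 2160.3 in del9. The del9 samples lay in a narrow band around the lowest EV sample, and 4 of the 5 gdf6Y samples lay below that band. Its change on the log2 scale was -0.20 (SE 0.032, adjusted p = 4.87e-08) with gdf6Y and -0.12 (SE 0.0306, adjusted p = 0.00357) with del9. *Ddx60* (chr8:62381109-62491278, plus strand) was 907 at the lowest, 949 at the median and 974 at the highest in EV, 810.2, 812, 843, 842 and 816 in gdf6Y, and 847, 867, 793, 827 and 811 in del9. Neither insert overlapped with EV, and the log2 fold changes were -0.19 (SE 0.0396, adjusted p = 8.74e-05) and -0.19 (SE 0.0391, adjusted p = 9.99e-05). *Helz2* changed by -0.16 and -0.085, and its call with del9 was lost in the fit of all 3 groups, with gene length offsets and when any of 4 samples was left out. *Adar* changed by -0.093 (SE 0.0297, adjusted p = 0.037) with gdf6Y and -0.031 (SE 0.0288, adjusted p = 0.522) with del9, and *Eif2ak2* by -0.053 and -0.050. All gdf6Y samples of *Adar* were below all EV samples, but its call was lost with gene length offsets and when any of 7 of the 11 samples was left out.

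Of the remaining members, *Xaf1*, an antagonist of the apoptosis inhibitor Xiap, *Samd9l*, which restrains translation, and *Rtp4*, a chaperone of membrane receptors, fell with both inserts. *Xaf1* (chr11:72192397-72204559, plus strand) was 1080.3 at the lowest, 1110.1 at the median and 1168 at the highest in EV, 1067, 959, 1010.0, 1031 and 975 in gdf6Y, and 975, 1007, 1026, 1044 and 1004 in del9. Neither insert overlapped with EV, and the log2 fold changes were -0.15 (SE 0.0375, adjusted p = 0.00404) and -0.14 (SE 0.0369, adjusted p = 0.00288). *Samd9l* (chr6:3372257-3405056, minus strand) was 2259.8 at the lowest, 2339 at the median and 2427 at the highest in EV, 2009, 2280.2, 2162, 2198 and 2109 in gdf6Y, and 2125, 2301, 2190.4, 2184 and 2188 in del9. Replicate 2 of both inserts lay within the EV range, and the other samples with an insert lay below it. The log2 fold changes were -0.12 (SE 0.0315, adjusted p = 0.00395) and -0.090 (SE 0.0305, adjusted p = 0.0363), and the call was lost without gdf6Y replicate 1 and, with del9, when any of 7 of the 11 samples was left out. *Rtp4*, whose value is uncertain because it shares sequence with the gene model *Gm45338*, changed by -0.12 and -0.13. Its call with gdf6Y was lost in the fit of all 3 groups and when any of 7 of the 11 samples was left out, and with del9 without del9 replicate 5. *Epsti1* had 53.0 ± 8.02 (SD, n = 6) normalized counts in EV and changed by 0.045 (SE 0.133, adjusted p = 0.912) and 0.26 (SE 0.127, adjusted p = 0.238).

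**Figure D2:**
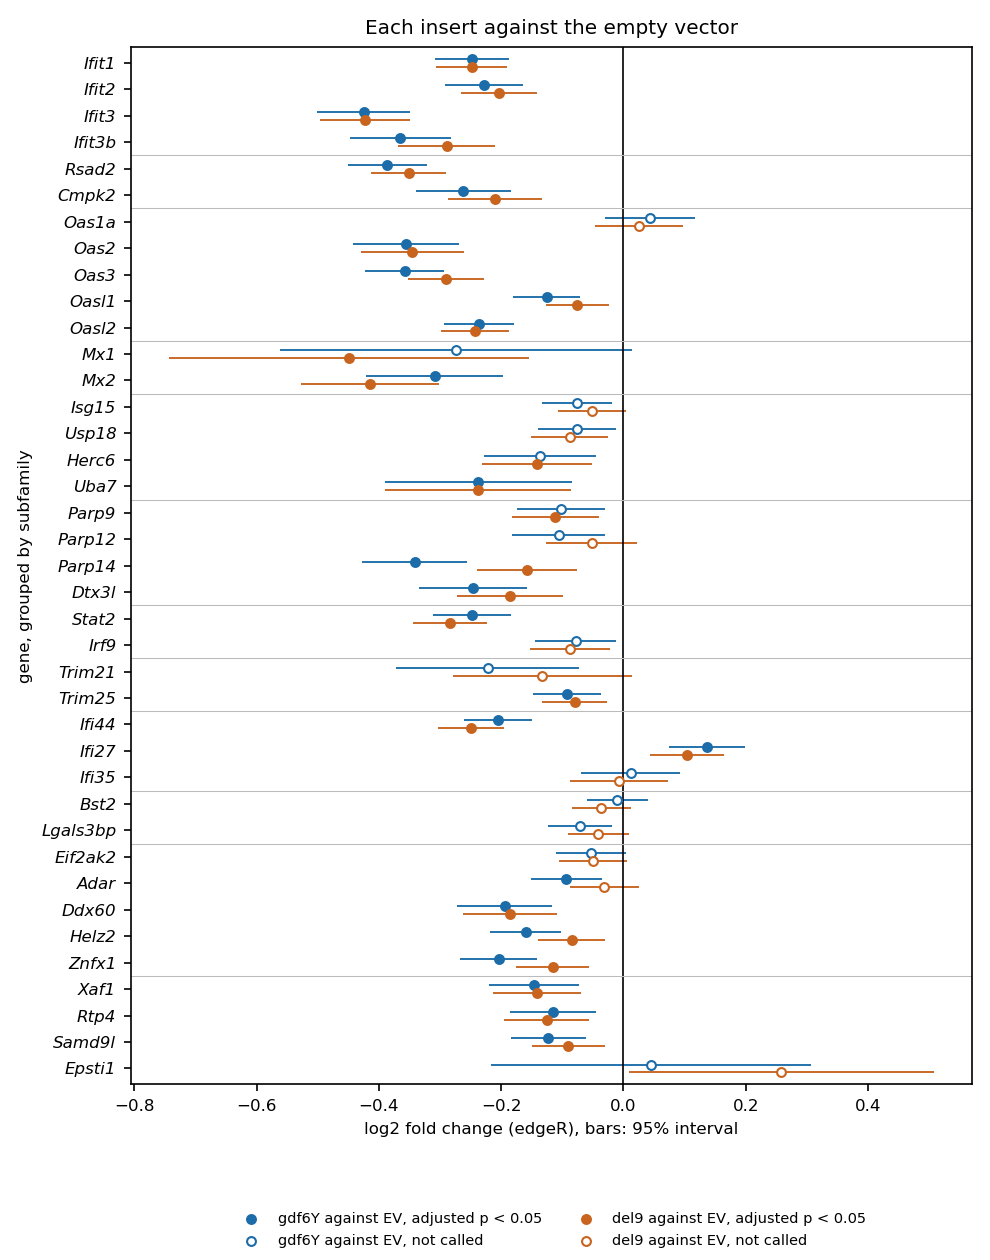
Log2 fold change of the 39 members against EV from edgeR (points) with 95% intervals from the fitted standard error (bars), for gdf6Y (blue) and del9 (orange). Filled points are called, and the 24 lower with gdf6Y and 26 lower with del9 lie left of 0, whereas Ifi27 lies right of it with both inserts.

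Members were called at every level. Among the 13 most abundant per kb (414 to 11084 normalized counts per kb in EV), 7 were lower with gdf6Y and 7 with del9, with median log2 fold changes of -0.093 and -0.080. Among the next 13 (225 to 411 per kb), 10 and 10 were lower, with medians of -0.15 and -0.12. Among the 13 least abundant (14.5 to 222 per kb), 7 and 9 were lower, with medians of -0.24 and -0.19. Of all genes with a mean of at least 10 normalized counts, 7.01% were lower with gdf6Y and 8.23% with del9. The share of all genes lower at each of these levels was not computed. Across the 39 genes, the rank correlation of the log2 fold change with the EV level per kb was 0.22 for gdf6Y and 0.20 for del9, and with exonic length it was -0.11 and -0.058. These are given as a description, since the genes share the same libraries. The 4 most abundant members per kb, *Bst2*, *Isg15*, *Oasl1* and *Lgals3bp*, had log2 fold changes between -0.13 and -0.010 with gdf6Y.

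Between the inserts, 1 member was called: *Parp14* was lower with gdf6Y than with del9, by -0.18 (SE 0.0475, adjusted p = 0.0236), and 0 members were higher. Of the 25878 genes tested, 0.410% were lower and 0.599% higher, and of the 12548 with a mean of at least 10, 0.837% were lower and 0.948% higher. The values of *Parp14* given above overlapped, since gdf6Y replicate 1 was above 2 of the del9 samples, and the exact p was 0.0238. The call was lost with DESeq2, with both stricter filters on low counts and when any of 5 samples was left out. At an unadjusted p below 0.05 edgeR found 3 members lower and 0 higher, while 979 of the 25878 genes tested were lower at this threshold. The number of all genes higher at this threshold was not computed. The exact permutation test also found 3 lower (*Parp14*, *Adar* and *Znfx1*) and 0 higher, against 5.61% lower and 3.26% higher among genes with a mean of at least 10. In 0 members was every gdf6Y sample below every del9 sample, against 1.39% of those genes. Without gdf6Y replicate 1, the sample that stood apart, *Parp14* and *Helz2* were lower.

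For the other 38 members a difference between the inserts was not called, which does not show that they acted alike. The 95% interval of the log2 difference was -0.080 to 0.089 for *Ifit3*, -0.10 to 0.043 for *Rsad2* and -0.027 to 0.11 for *Stat2*. It was wider for the members with few counts, -0.14 to 0.50 for *Mx1* and -0.47 to 0.051 for *Epsti1*. For *Ifit3*, *Rsad2* and *Stat2* the intervals rest on fitted standard errors of 0.0432, 0.0365 and 0.0356. The standard errors from the spread of their own samples were larger, 0.0833, 0.0729 and 0.0637. In this comparison the standard error from a gene's own samples was larger than the fitted one for 24 of the 39 members. The members called with only 1 of the inserts were not shown to differ between them. For *Mx1* the difference was 0.18 (SE 0.164, adjusted p = 0.654), for *Herc6* 0.011 (SE 0.0503, adjusted p = 0.98), for *Parp9* 0.015 (SE 0.0409, adjusted p = 0.926) and for *Adar* -0.056 (SE 0.0334, adjusted p = 0.654).

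**Figure D3:**
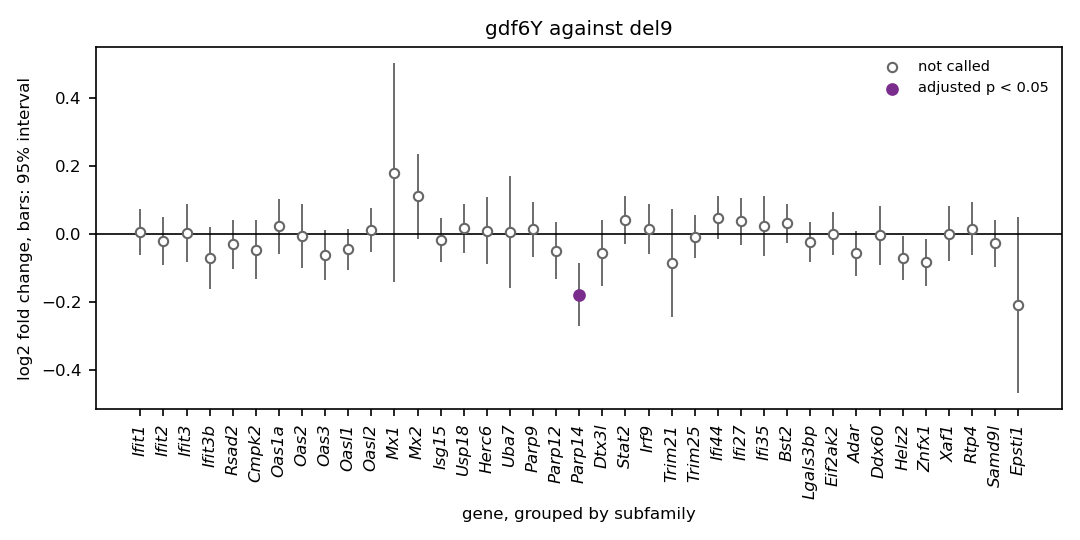
Log2 fold change of gdf6Y against del9 for the 39 members from edgeR (points) with 95% intervals from the fitted standard error (bars). The filled point is Parp14, the 1 member called, and the widest intervals belong to Mx1 and Epsti1.

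Other genes of the pathway were examined by their place in it. For comparison, 7.01% of the genes with a mean of at least 10 were lower and 3.50% higher with gdf6Y. With del9 these shares were 8.23% and 9.97%. Of 21 genes for interferons of all types, 6 had any count, no sample had more than 5 counts of any of them, and the counts summed to 62 over all samples. Of 8 receptor and kinase genes tested, 0 were called in either comparison against EV, a list too short to set apart from these shares. Of the transcription factors beside the members, 11 were tested with gdf6Y, and *Stat3* and *Irf7* were lower. With del9, of those reported here, *Stat3* and *Irf7* were lower and *Rela* was higher. *Irf7*, which induces the interferon genes, changed by -0.13 (SE 0.0312, adjusted p = 0.00186) with gdf6Y and -0.17 (SE 0.0302, adjusted p = 2.71e-06) with del9. Of 10 negative regulators, *Socs3* was lower with both inserts and *Ptpn1* was higher with del9.

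Of 21 sensors of nucleic acid and their adaptors, 4 were lower with gdf6Y (*Zbp1*, *Rigi* and *Dhx58* had the smallest p) and 7 with del9, and 0 were higher. Beside this and the next list stand the 7.01% and 8.23% lower among genes with a mean of at least 10. *Zbp1*, a sensor of left-handed nucleic acid, changed by -0.40 (SE 0.0407, adjusted p = 2.32e-18) and -0.37 (SE 0.0395, adjusted p = 1.49e-17). Of 54 other interferon-stimulated genes tested, 10 were lower with gdf6Y and 17 with del9, and 0 were higher. *Rnf213*, *Ccl5* and *Cxcl10* had the smallest p with gdf6Y, and *Rnf213* changed by -0.37 (SE 0.0307, adjusted p = 4.26e-27) and -0.22 (SE 0.0269, adjusted p = 1.36e-13). Between the inserts, *Rnf213* was lower and *Ifi202b* and *Ifi205* were higher with gdf6Y, while 0 of the ligands, receptors, transcription factors and negative regulators were called. Among the markers of cell types, *Gata4* of the Sertoli cell list was lower with gdf6Y and no other was called against EV.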

How the data were processed

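RNA-Seq was made from the poly(A) fraction of 16 samples of transfected TM4 cells. The authors' deposited values are raw counts of reads per gene on GRCm39 with an Ensembl 107 annotation, whole numbers without normalization. Their processing notes name bcl2fastq 2.20.0.422, UMI-tools, STAR 2.7.10a and featureCounts 2.0.3, and per the study's methods PCR duplicates were removed and uniquely mapped reads were counted by strand. Symbols and positions came from GENCODE M39 (GRCm39), which matched 56017 of 56748 identifiers and is not the release used for counting.

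The analysis used edgeR 4.0.16 (R 4.3.3). A gene entered a comparison with 1 count or more in any of its samples, libraries were scaled with TMM, and 2 groups at a time were compared with the quasi-likelihood test, with Benjamini-Hochberg adjustment over all genes and a threshold of 0.05. Standard errors follow from the log2 fold change and the F statistic, and 95% intervals use 1.96 of them. The exact permutation test used log2 of normalized counts plus 1. The steps were tested on simulated counts.

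The members and all gene lists were chosen with earlier results of these data known. All 39 members are accounted for. Values in every sample with an insert are given for the member with the smallest p of each of 12 subfamilies in each comparison with EV. They are also given for members called between the inserts. For EV the lowest, median and highest values of these members are given. Up to 3 called genes of each other list are named. One symbol of the other lists had no match. Results for some genes of these lists are not reported here.

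Groups share replicate numbers in the labels. Over 10075 genes whose mean count was 100 or more, the deviations of same-numbered samples correlated at 0.109 to 0.417 between gdf6Y and EV and at 0.22 to 0.382 between gdf6Y and del9, so these were taken as paired. Against EV, gdf6Y replicates 3 and 5 correlated more with another number (0.187 and 0.263) than with their own (0.109 and 0.215). Against del9, gdf6Y replicate 2 reached 0.305 with another number and 0.303 with its own. The pairing is therefore uncertain, and the main fit did not use it. Between del9 and EV the correlation was 0.0529 for replicate 3, and no pairing was taken, although pairing both with gdf6Y would imply it. The fit was repeated with DESeq2 1.42.0, with its size factors, with total counts, with filterByExpr, with a minimum of 10 counts per sample, with the 3 groups fitted together, with the replicate block, with gene length offsets and without each sample in turn.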

Additional observations from a re-analysis of the deposited data

Results flagged for a closer look

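Among the 120 groups of values examined by Dixon's test at the 95% level, 4 had a sample far from the others, where chance gives about 1 in 20, or 6. *Oas2* in gdf6Y was highest in replicate 1, with 699.8 normalized counts against 564 to 595 in the other 4 samples (gap over range 0.776). *Ifi44* in gdf6Y was lowest in replicate 2, with 3980.0 against 4223 to 4311 (0.734). *Ifi35* in del9 was highest in replicate 3, with 823 against 744 to 766 (0.718). The total count of del9 replicate 3 was the lowest of its group at 24608410 reads (0.712). Without these samples, *Oas2* and *Ifi44* remained lower than EV and *Ifi35* was not called.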

How the results depend on the processing

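The number of members lower with gdf6Y was 24 and ran from 22 to 31 over the alternatives and from 20 to 27 with samples left out. With del9 it was 26, ran from 24 to 30, and from 17 to 27 with samples left out, 17 being without del9 replicate 5. With the replicate block it was 27 and 26, and with the block and gene length offsets 30 and 30. The block changed the call of *Herc6*, *Parp12* and *Trim21* in gdf6Y against EV and, of the members, none between the inserts. Called under every edgeR and DESeq2 alternative and every sample left out were 19 of 25 members for gdf6Y and 17 of 27 for del9. The 1 member higher with del9, *Ifi27*, became 0 with DESeq2, filterByExpr, a minimum of 10 counts per sample, the 3 groups fitted together, gene length offsets, the block with these offsets and the exact permutation test, and was 0 to 1 with samples left out. The 1 member lower in gdf6Y against del9 became 0 with DESeq2, filterByExpr and the minimum of 10 counts, 3 with the exact permutation test, and 0 to 2 with samples left out. The cause of these changes was not tested. Signs against EV turned only for members that were not called there: *Ifi35* with gdf6Y (-0.013 with gene length offsets, -0.014 with the block added, -0.015 with a sample left out) and with del9 (0.0058 with a sample left out), *Bst2* (0.023) and *Epsti1* (-0.015) with gdf6Y with a sample left out. Between the inserts the sign of 18 members turned under an alternative or a sample left out, none of them called. Depth limits *Mx1*, *Epsti1*, *Uba7* and *Trim21*, whose fitted standard errors exceeded 0.07.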
